A study of Mus musculus with 24 samples.

Results

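The genes described here carry out MHC class I antigen presentation: the classical heavy chains H2-K1 and H2-D1, the light chain B2m, the peptide transporter and loading genes Tap1, Tap2 and Tapbp, the immunoproteasome subunits Psmb8, Psmb9 and Psmb10, and Nlrc5. They were chosen by name, as every probe whose gene symbol in the array files was one of these 10, which gave 14 of the 39429 probes on the array. All 10 genes passed the filter on dim probes, as did 18737 genes in all, and 9 of them were among the 17472 genes that also passed a filter on variation between arrays and were tested. Tapbp did not pass that filter, so its values are from the same fit without it and it is left out of the counts.

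Almost every nucleated cell displays short peptides from its own proteins on class I molecules, where CD8+ T cells read them. The proteasome cuts proteins into peptides, Tap1 and Tap2 form the pump that moves the peptides into the endoplasmic reticulum, tapasin (Tapbp) holds the empty class I molecule at that pump, and the loaded heavy chain leaves for the surface together with β2-microglobulin (B2m). In lymphocytes and in cells exposed to interferon gamma the catalytic subunits Psmb6, Psmb7 and Psmb5 are replaced by Psmb9, Psmb10 and Psmb8, which changes the peptides that are cut, and Nlrc5 is a transactivator of class I promoters. Blood is rich in lymphocytes, which express these genes strongly and are among the most radiation-sensitive cells of the body.

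RNA from whole blood was measured in 24 male C57BL/6J mice, 6 in each of 4 groups. Young mice were 2 months old and old mice 21 months old, and within each age the mice were either sham-treated (unirradiated) or given 4 Gy of x-rays to the whole body, with blood taken 24 h later by cardiac puncture. All 4 groups shared the strain, the sex, the collection into an RNA-stabilizing solution and the removal of globin RNA, and each array held the RNA of 1 mouse. Dose, time and sex each had a single value, so the groups are a model of young and old males 1 day after this exposure.

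The level of a gene below is the log2 of its background-subtracted probe signal minus the median of its array, and a difference is between group means on that scale. A gene is called changed where limma's moderated test gave p under 0.005 and, after Benjamini-Hochberg adjustment over the 17472 genes, an adjusted p under 0.05. Array medians lay between 8.66 and 44.8 signal units, 43.9% to 64.4% of spots were well above background, and the probes standing for the 10 genes were well above background and unsaturated in 240 of 240 values. Within the other groups array-to-array correlations over all genes were 0.894 or higher, but old irradiated replicates 4 and 6 correlated with the other 4 arrays of their group at only 0.776 to 0.850, and with each other at 0.989. In these mice the mean level (log2, over the list) of 10 red cell markers was 9.03 and 9.07, against 4.95 to 5.99 in the other 4, and that of 9 monocyte markers was 4.15 and 4.11 against 6.54 to 6.84. Their arrays were also the dimmest of all, with medians of 8.66 and 8.84 signal units, where the next lowest array had 14.4. Results on old irradiated mice include both arrays unless stated, and the main ones are also given without them. All young arrays were scanned on 1 day and all old arrays on another, on separate slides, so age cannot be told apart from slide or scan day.

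The promoter sequences below show which of the letter patterns known from interferon and class I control these genes carry upstream of their starts. RefSeq (GRCm38.p6) windows of 300 bases around the start were found for 8 of the 10 genes, all but Tap2 and Nlrc5. Capitals mark an exact match on either strand to GAAA, any 2 bases and GAAA (an interferon-stimulated response element, in 3.44% of 32851 promoter windows), TTCNNNGAA (a gamma-activated site, in 8.3%), a κB element (the first capitals of H2-K1, in 0.107%), CCAAT (in 37.4%) or TGACG (the core of a cyclic AMP response element, in 20.8%). Stretches are given 5′ to 3′ on the gene's strand.
H2-K1, chr17:34000349-34000468, minus strand: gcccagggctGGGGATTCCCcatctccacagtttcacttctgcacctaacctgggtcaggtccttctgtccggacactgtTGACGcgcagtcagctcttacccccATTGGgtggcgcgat
H2-D1, chr17:35262913-35263055, plus strand: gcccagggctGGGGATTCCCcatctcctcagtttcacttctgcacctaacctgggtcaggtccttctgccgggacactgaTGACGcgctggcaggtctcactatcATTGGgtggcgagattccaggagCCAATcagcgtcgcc
B2m, chr2:122147538-122147648, plus strand: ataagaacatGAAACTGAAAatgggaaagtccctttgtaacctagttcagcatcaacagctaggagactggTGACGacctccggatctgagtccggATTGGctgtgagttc
Psmb8, chr17:34198088-34198116, plus strand: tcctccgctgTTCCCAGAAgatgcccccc
Tap1 and Psmb9, chr17:34187331-34187555, plus strand: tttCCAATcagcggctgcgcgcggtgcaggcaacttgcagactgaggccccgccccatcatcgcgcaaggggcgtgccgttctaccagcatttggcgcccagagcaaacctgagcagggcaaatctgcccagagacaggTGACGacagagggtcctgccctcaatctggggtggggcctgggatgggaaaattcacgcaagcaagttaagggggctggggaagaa

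The promoter windows of H2-K1 and H2-D1 share a run of 47 identical bases. Both printed stretches hold the κB letters followed by TGACG and an inverted CCAAT. The B2m stretch has TGACG and the inverted CCAAT in the same order. Before them stands an exact match to the interferon-stimulated response element, and no exact match to the κB letters. Tap1 and Psmb9 start head to head, so that the 225 bases printed lie upstream of both. The Psmb10 window held 0 of the patterns and the Tapbp window only CCAAT, and neither is printed. A match is only a match of letters within its window. An element that departs from its pattern by any base is not marked, so unmarked bases do not show its absence.

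Irradiation of young mice raised B2m and left most of the other genes short of the threshold. B2m rose 2.19-fold, and the heavy chains that it pairs with stood 1.11-fold (H2-K1) and 1.39-fold (H2-D1) higher without being called. Of the immunoproteasome subunits, none was called by itself, but Psmb8 fell against its constitutive counterpart Psmb5 on the same arrays.

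The level of B2m was 9.90, 10.30 and 10.57 (lowest, median and highest of 6) in young unirradiated mice and 10.72, 11.51 and 11.90 in young irradiated mice. Every irradiated mouse lay above every unirradiated one, as was the case for 9.58% of all genes tested. The difference was 1.13 (SE 0.20, limma adjusted p = 5.87e-04), and it was 1.19 between the 2 mice of each treatment that shared a slide. It was called under all 5 ways of scaling the arrays, but not with normexp background correction.

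B2m was the only 1 of the 9 tested genes called higher, and 0 were called lower, whereas 14.4% of all genes were called higher and 21.4% lower. The 9 genes had a median difference of 0.15, against -0.20 over all genes. Thus the share called higher was close to the background, and the share called lower was below it.

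H2-K1 lay at 9.98, 10.23 and 10.44 in unirradiated and at 10.19, 10.36 and 10.52 in irradiated young mice, and the groups overlapped. Its difference was 0.15 (SE 0.13, limma adjusted p = 0.368). H2-D1 lay at 8.89, 9.26 and 9.51 in unirradiated and at 9.15, 9.77 and 10.03 in irradiated mice, with a difference of 0.47 (SE 0.17, unadjusted p = 0.0162, limma adjusted p = 0.0367) that met the adjusted but not the unadjusted threshold.

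Among the genes of peptide transport and loading, Tap1 differed by -0.25 (SE 0.25) and Tap2 by -0.01 (SE 0.19), neither of them called. Tapbp, from the fit without the variation filter, differed by 0.45 (SE 0.12, limma adjusted p = 0.00862) and would have been called there. Its levels were 6.19, 6.24 and 6.51 in unirradiated and 6.48, 6.76 and 6.89 in irradiated young mice, with 1 unirradiated mouse reaching into the irradiated range. Nlrc5 differed by 0.21 (SE 0.19, limma adjusted p = 0.383).

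The 3 immunoproteasome subunits did not move alike in young mice. Psmb8, the chymotrypsin-like subunit, lay at 6.74, 6.99 and 7.07 without radiation and at 6.38, 6.54 and 7.07 with it, a difference of -0.35 (SE 0.14, limma adjusted p = 0.0594). All but the highest irradiated mouse were below the lowest unirradiated mouse. Psmb9 differed by -0.30 (SE 0.13, limma adjusted p = 0.0684) and Psmb10, the trypsin-like subunit, by 0.19 (SE 0.17, limma adjusted p = 0.387).

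**Figure D1:**
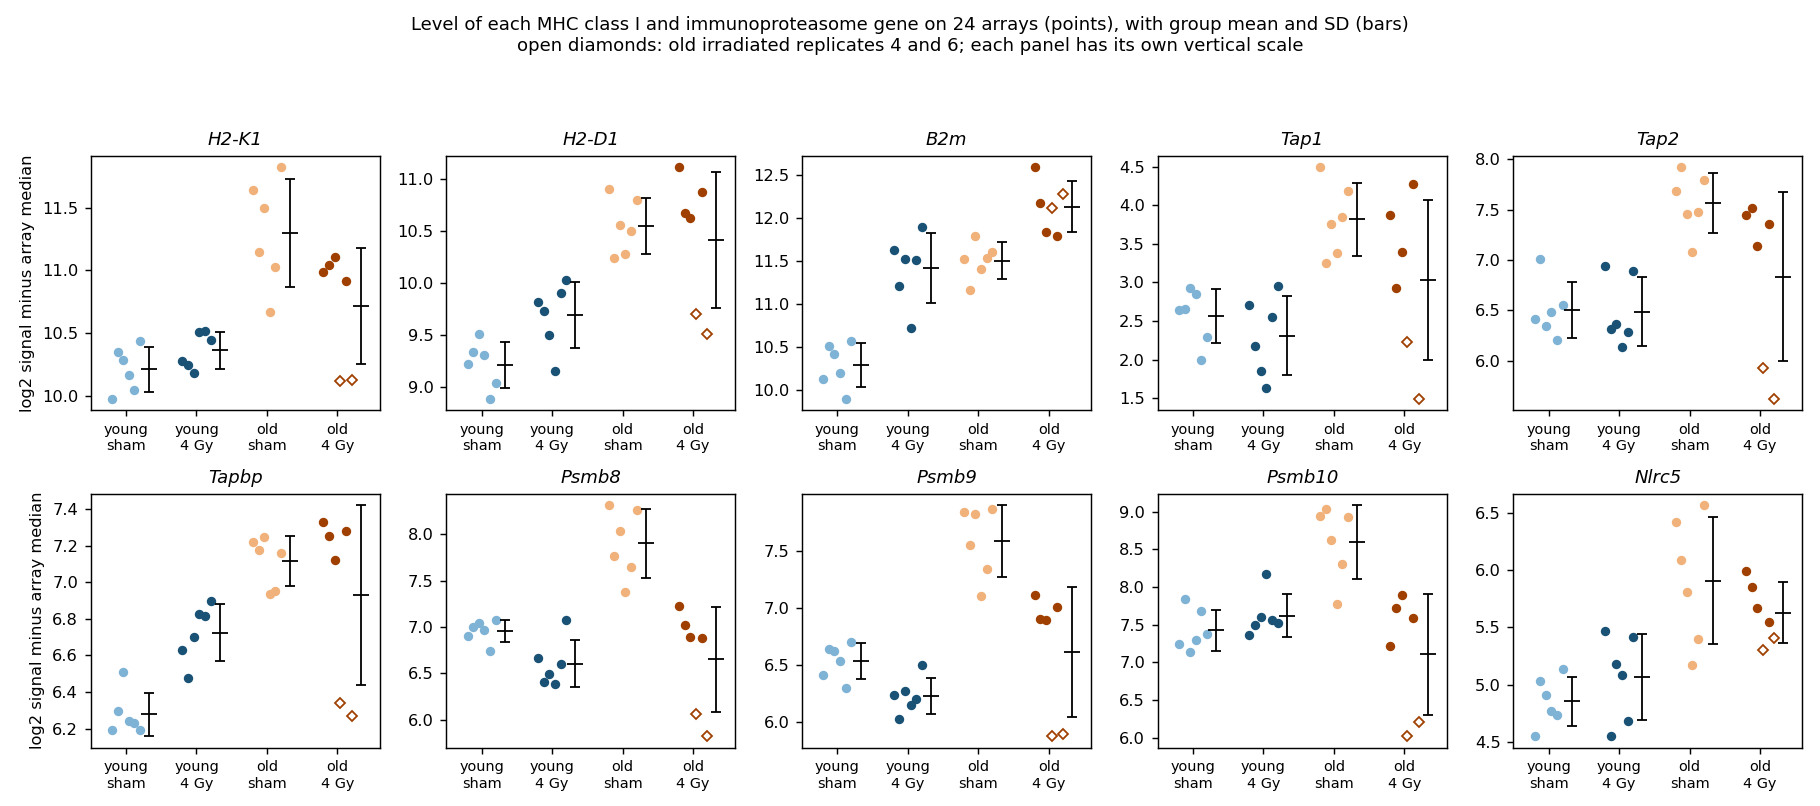
Level of each of the 10 genes (log2 signal minus array median, vertical axis, with a scale of its own in each panel) on the 24 arrays, by group, with the group mean and SD as bars and old irradiated replicates 4 and 6 as open diamonds. B2m is higher in all 6 young irradiated mice than in any young unirradiated mouse, and Psmb8 is lower in all 6 old irradiated mice than in any old unirradiated mouse.

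Irradiation of old mice lowered Psmb8 and Psmb10, and Psmb9 stood 1.96-fold lower without reaching the unadjusted threshold. Psmb8 fell to 0.420 of its unirradiated signal and Psmb10 to 0.356. B2m was again on the higher side, 1.54-fold, but was not called, and the heavy chains, the transporter genes, Tapbp and Nlrc5 were not called either.

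Psmb8 lay at 7.38, 7.90 and 8.32 in old unirradiated mice and at 5.82, 6.89 and 7.23 in old irradiated mice. The groups did not overlap, as was the case in this direction for 16.8% of all genes. The difference was -1.25 (SE 0.30, limma adjusted p = 0.00714), -0.83 between the 2 mice of each treatment on the shared slide, and -0.90 without replicates 4 and 6, where it was still called.

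Psmb10 lay at 7.77, 8.78 and 9.03 in old unirradiated mice and at 6.02, 7.41 and 7.89 in old irradiated mice, and the lowest unirradiated mouse fell within the irradiated range. The difference was -1.49 (SE 0.38, limma adjusted p = 0.00927), -1.15 on the shared slide and -0.99 without replicates 4 and 6, still called.

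Psmb9 lay at 7.10, 7.68 and 7.86 without radiation and at 5.88, 6.90 and 7.11 with it, overlapping by the highest irradiated mouse alone. Its difference was -0.97 (SE 0.29, unadjusted p = 0.00544, limma adjusted p = 0.0212), so it missed the unadjusted threshold, and it was -0.60 without the 2 arrays.

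These were 2 of 9 tested genes called lower and 0 called higher, where 17.4% of all genes were called lower and 7.60% higher. The median of the 9 genes was -0.73, and that of all genes was -0.25. Without replicates 4 and 6 the median of the 9 was -0.20 beside -0.30 over all genes, 2 were again called lower and 0 higher, and of all genes 22.8% were called lower and 11.9% higher. Those 2 arrays were the lowest of their group for all of the 10 genes except B2m, as the plot of levels by group shows. Other ways of scaling the arrays moved the median of all genes in old mice to as much as 0.34. Relative to that median Psmb8 stood at -1.36 to -1.002 and was called under all 4 scalings in which it was tested, and Psmb10 stood at -1.59 to -1.24 and was called under 5 of 5. Psmb9 stood at -1.07 to -0.72 and was called under 1 of 3. B2m, by the same measure at 0.59 to 0.87, was called under 2 of 5. With normexp background correction Psmb8 stood at -0.55 and Psmb10 at -0.81, and neither was called.

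The heavy chains and the transporter illustrate how far these arrays carried the old comparison. H2-K1 differed by -0.58 with all arrays and by -0.29 without the pair, and H2-D1 by -0.13 and 0.28. Tap1 differed by -0.79 and -0.20, and Tap2 by -0.73 and -0.20. None of these 8 values was called, and the part of the red cell and monocyte transcripts in them was not tested.

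B2m in old mice lay at 11.16, 11.53 and 11.79 without radiation and at 11.78, 12.15 and 12.59 with it. The lowest irradiated mouse was just below the highest unirradiated one. Its difference of 0.63 (SE 0.22, unadjusted p = 0.0145, limma adjusted p = 0.0435) missed the unadjusted threshold, and was 0.59 without replicates 4 and 6.

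**Figure D2:**
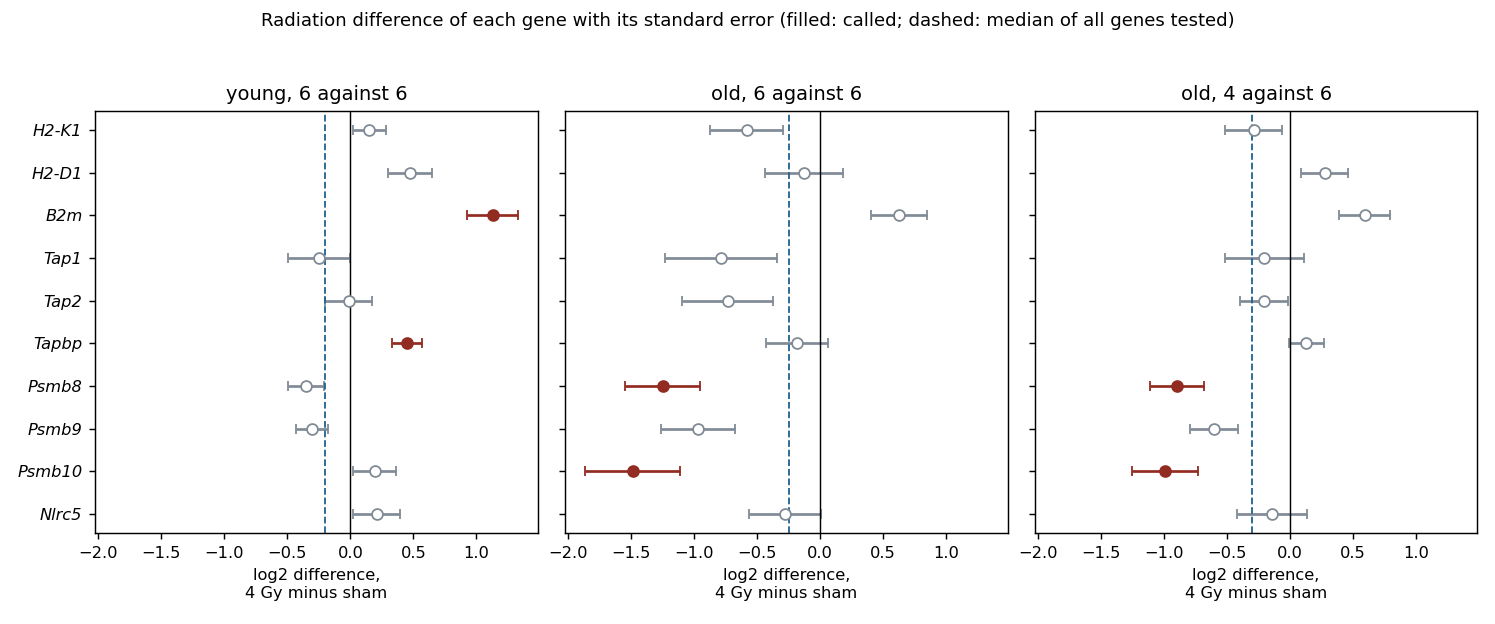
Difference in log2 level between irradiated and unirradiated mice (horizontal axis) for each of the 10 genes, with its standard error as the bar and called genes filled, in young mice, in old mice, and in old mice without replicates 4 and 6. The dashed line is the median of all genes tested; B2m lies to its right in each panel and Psmb8 to its left.

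B2m moved apart from the heavy chains on the same arrays, a contrast looked at after the values were seen and given without a test. The log2 difference between the B2m and H2-K1 probes was -0.15, 0.13 and 0.16 (lowest, median, highest) in young unirradiated and 0.21, 1.16 and 1.45 in young irradiated mice, which did not overlap. The mean shift was 0.98 in young mice. In old mice it was 1.21, or 0.88 without replicates 4 and 6. The size of this shift depends on the H2-K1 probe. The probe used differed by 0.15 (young) and -0.58 (old) after irradiation. The other 2 H2-K1 probes differed by 0.28 and 0.08 in young mice and by -0.17 and -0.10 in old mice. Against H2-D1 the shift came to 0.66 (young) and 0.76 (old), or 0.32 in old mice without the 2 arrays. Each shift is a change in a within-array difference, since levels of 2 probes cannot be set against each other.

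**Figure D3:**
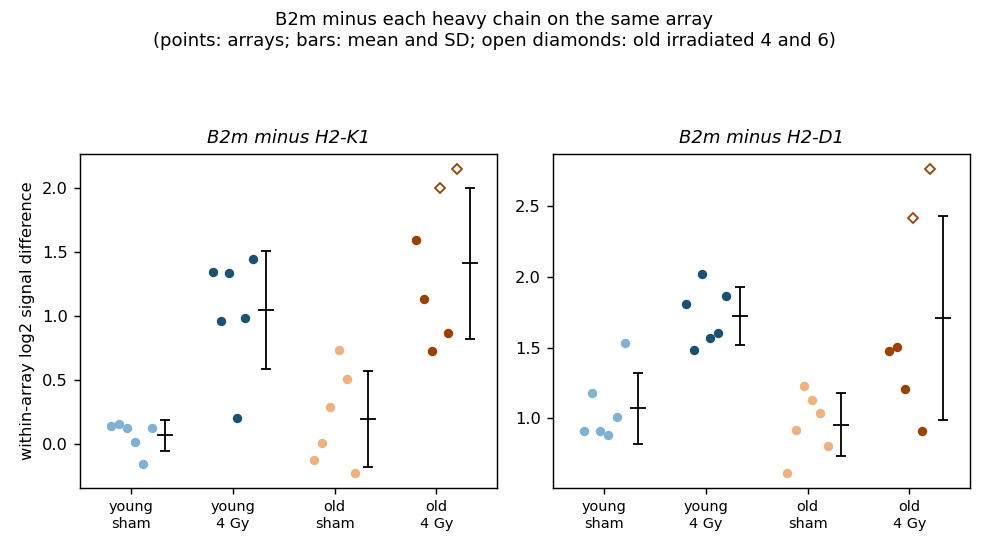
Within-array log2 difference between the B2m probe and the H2-K1 probe (left) or the H2-D1 probe (right), by group, with group means and SD as bars and old irradiated replicates 4 and 6 as open diamonds. The irradiated groups lie higher for both heavy chains, with means of 1.05 and 1.41 for H2-K1 against 0.07 and 0.20 without radiation.

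Setting each immunoproteasome subunit against the constitutive subunit it replaces takes array scaling out of the comparison. The Psmb8 and Psmb5 transcripts are related in sequence, as their probes show. The printed Psmb5 probe is its less intense one, chr14:55233161-55233220 (minus strand), and the Psmb8 probe lies at chr17:34337771-34337830 (plus strand), both on mm9. The more intense Psmb5 probe, chr14:55232957-55233016, stood for the gene in the tests, and the 2 Psmb5 probes differed after irradiation by 0.43 and 0.33 (young) and by -0.31 and -0.36 (old). Capitals mark the 31 of 50 overlapping bases (62%) that are identical.
Psmb8 probe: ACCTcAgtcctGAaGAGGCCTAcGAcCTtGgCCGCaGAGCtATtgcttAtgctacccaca
Psmb5 probe: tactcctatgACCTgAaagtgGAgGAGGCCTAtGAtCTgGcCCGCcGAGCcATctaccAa

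Psmb8 fell against Psmb5 after irradiation at both ages. In young mice the within-array difference was -1.40, -0.89 and -0.79 (lowest, median, highest) without radiation and -2.13, -1.83 and -1.31 with it, overlapping by 1 mouse of each group. The shift of -0.79 was a 1.72-fold fall (two-sided exact permutation p = 0.00433, adjusted over 12 tests 0.0173). It combined a Psmb8 difference of -0.35, uncalled, with a Psmb5 difference of 0.43 in the other direction. In old mice the difference was -1.12, -1.02 and -0.60 without radiation and -2.44, -1.80 and -1.48 with it, without overlap. The shift of -0.94 was a 1.92-fold fall (exact p = 0.00216, the smallest the 924 splits allow, adjusted 0.0173), and without replicates 4 and 6 it was -0.74 (exact test, adjusted p = 0.0190). With all arrays, Psmb8 differed by -1.25 and Psmb5 by -0.31 in old mice.

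Psmb10 fell against Psmb7 in old mice by 1.10 (exact test, adjusted p = 0.0260), and by 0.79 without replicates 4 and 6, where it missed the threshold (exact test, adjusted p = 0.114). In young mice that shift was -0.14 (exact p = 0.496). Psmb9 against Psmb6 differed by -0.42 in young mice (exact p = 0.141, adjusted 0.211) and by -0.08 in old mice (exact p = 0.587). Psmb9 stood higher against Psmb6 in old than in young unirradiated mice, by 0.32 (exact p = 0.00433, adjusted 0.0173), and by 0.65 in irradiated mice (exact p = 0.0455, adjusted 0.109). Of the 12 tests, 3 pairs in 4 comparisons, 4 passed after adjustment.

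**Figure D4:**
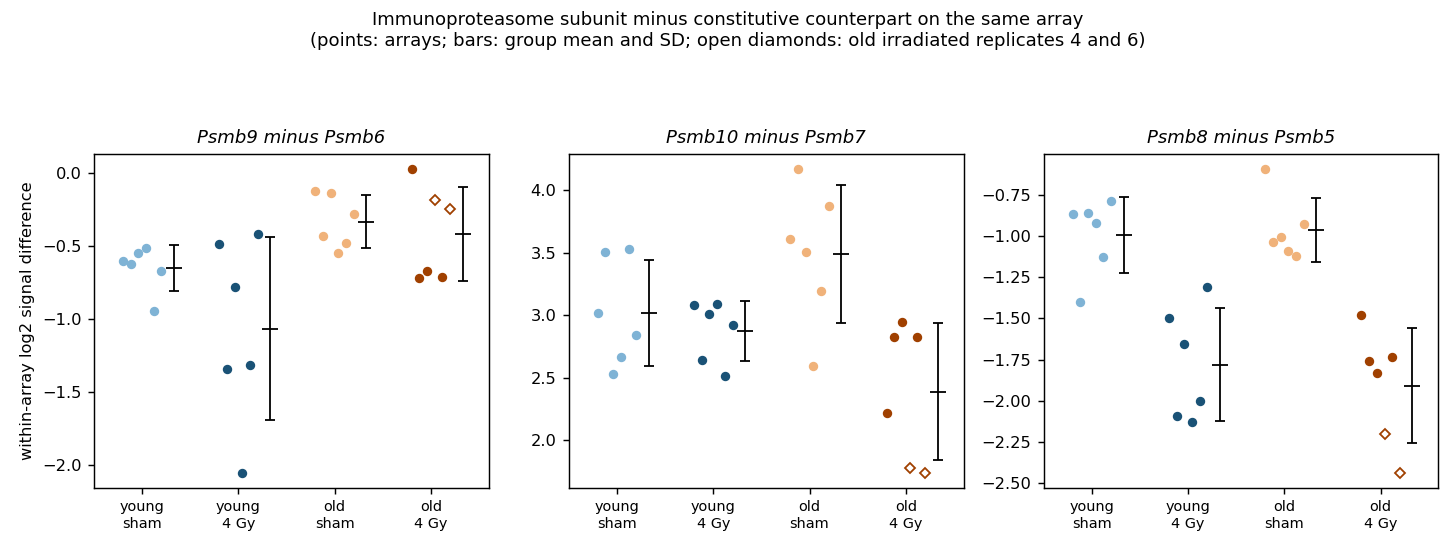
Within-array log2 difference between an immunoproteasome subunit and the constitutive subunit it replaces (vertical axis, one panel per pair), by group, with points for arrays, bars for the group mean and SD, and open diamonds for old irradiated replicates 4 and 6. Psmb8 minus Psmb5 is lower in irradiated mice at both ages, and Psmb10 minus Psmb7 is lower in old irradiated mice.

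Without radiation, every one of the 9 tested genes stood higher in old than in young mice on this scale, by 0.95 (Psmb8) to 1.33 (H2-D1), or 1.93-fold to 2.52-fold, and all were called (limma adjusted p from 1.56e-05 to 0.00106). However, 48.2% of all genes were called higher and 15.5% lower, and the median of all genes was itself 0.63, so the 9 genes, with a median of 1.09, stood higher within a general upward shift. Cell markers moved in the same comparison. Of 12 neutrophil markers 9 were called higher in old mice, of 9 monocyte markers 7 and of 10 platelet markers 9, and 0 of each list lower. Their mean levels ran from 3.61 to 4.67 (neutrophil), 5.01 to 5.59 (monocyte) and 7.32 to 8.21 (platelet) in young unirradiated mice, and from 5.20 to 7.12, 6.37 to 6.92 and 8.51 to 9.53 in old unirradiated mice. Their part in the age differences of the 9 genes was not tested. The groups did not overlap for 8 of the 9, Psmb10 being the exception, and for 37.4% of all genes. Tapbp, outside the count, differed by 0.84 (SE 0.11, limma adjusted p = 3.76e-05). Related genes were called higher too: 15 of 16 other class I genes, 10 of 11 peptide trimming and loading genes and 10 of 10 constitutive 20S proteasome genes. The count depended on the processing, since over all the related lists together 69 genes were called higher on this scale, but 15 after quantile normalization, 17 by the 75th percentile, 14 by bright probes, 8 in the authors' table and 0 by limma with normexp background correction.

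The general shift differed with the scaling of the arrays. It was -0.02 when arrays were scaled to their 75th percentile, -0.11 when they were scaled to the median of bright probes, 0.11 after quantile normalization and 0.02 in the authors' deposited table. The genes of the list then stood closer to zero. The called ones numbered 3 of 5 tested, 2 of 4, 3 of 7 and 2 of 8 in that order. H2-D1 and B2m were called under all 5 scalings, with H2-D1 between 0.69 and 0.85 and B2m between 0.57 and 0.74 above the median of all genes. Nlrc5 turned from 1.05 to -0.28 in the authors' table, which holds another of its probes. In the scanner files that other Nlrc5 probe differed by 0.04. The authors' table also holds another H2-K1 probe, the second one printed below, which differed by 1.27 in the scanner files. With normexp background correction 0 of 10 were called.

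**Figure D5:**
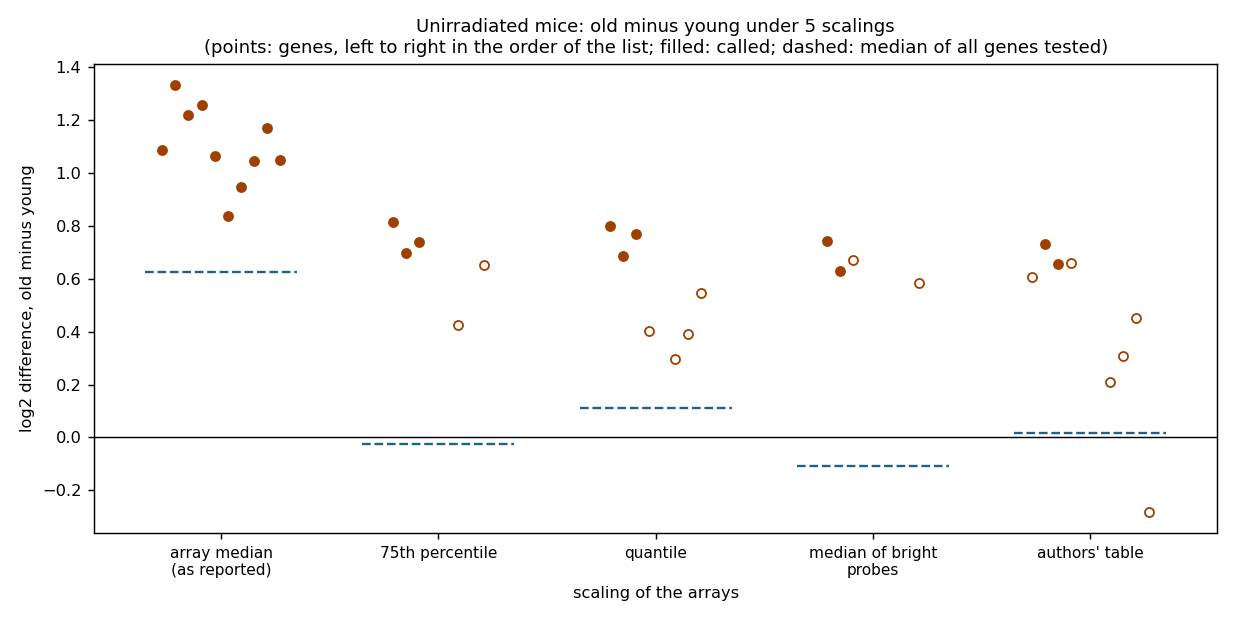
Difference in log2 level between old and young unirradiated mice (vertical axis) for the genes that could be tested under each of 5 ways of scaling the arrays (horizontal axis), in the order H2-K1, H2-D1, B2m, Tap1, Tap2, Tapbp, Psmb8, Psmb9, Psmb10, Nlrc5, with called genes filled and the median of all genes dashed. The median of all genes falls from 0.63 under array-median scaling to values between -0.11 and 0.11 under the others.

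Among irradiated mice, 0 of the 9 genes were called between old and young by limma (3 had a higher level with an unadjusted p below 0.05, as did 16.4% of all genes), and 1.40% of all genes were called higher and 0.601% lower. The differences ran from -0.51 (Psmb10) to 0.73 (H2-D1). Without old irradiated replicates 4 and 6, 5 were called higher and 0 lower, where 20.3% and 8.22% of all genes were: H2-D1 by 1.13, Tap1 by 1.31, Tap2 by 0.88, Psmb9 by 0.75 and H2-K1 by 0.65. Hence the count here depended on those 2 arrays.

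The change in old mice minus the change in young mice was negative for all 10 genes, with medians of -0.66 over the 9 tested genes and -0.24 over all genes. Without old irradiated replicates 4 and 6 it was negative for 9 of the 10, with medians of -0.35 and -0.13 in the same order. By limma, 0 of the 9 and 0 of all 17472 genes were called for this interaction of age and radiation; 4 of the 9 had an unadjusted p below 0.05, as did 17.1% of all genes on the negative side. The widest was Psmb10, whose change differed by -1.68 (unadjusted p = 5.07e-04, limma adjusted p = 0.106). It was called in 1 of 24 fits that each left out 1 array, the one without old irradiated replicate 3. Thus a difference between the ages in the radiation response was not established for any of these genes.

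Across the 24 arrays the members correlated with one another at r from -0.09 (B2m with Psmb10) to 0.96 (Psmb8 with Psmb9), with a median of 0.76 over 36 pairs. These arrays share treatment, age and slide. They include old irradiated replicates 4 and 6, which were the lowest of their group for every member except B2m. After the group means were subtracted the range was -0.31 to 0.96, with that pair still included. Correlations without that pair were not computed. Its part in these values, and in the nearest genes that follow, was therefore not tested. The gene most like Psmb8 was TC1642106, an unnamed transcript (r = 0.972), and the gene most like B2m was Ntan1 (r = 0.973), and 1635 genes outside the list were more like B2m than was H2-D1, its closest member. For H2-D1 the most similar gene was H2-Q2 (r = 0.988), another class I heavy chain. Whether the probe of either gene also reads the other's transcript was not tested.

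Class I probes can share sequence, which bears on how far one heavy chain can be told from another. The probe standing for H2-K1 shared at most 8 bases in a row with the class I and class II gene probes it was compared with, and the H2-D1 probe at most 12. These runs are between probes only. How far a probe matches the transcripts of other class I genes was not examined. A second, less intense H2-K1 probe, chr17:34133984-34134043 on mm9 (minus strand), shared 29 bases with the probe for H2-T23, shown in capitals.
H2-K1 second probe: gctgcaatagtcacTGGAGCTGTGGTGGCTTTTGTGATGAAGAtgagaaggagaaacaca
H2-T23 probe: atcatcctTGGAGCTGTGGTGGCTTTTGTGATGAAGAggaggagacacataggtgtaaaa

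The 3 H2-K1 probes differed by 0.15, 0.28 and 0.08 after irradiation of young mice and by -0.58, -0.17 and -0.10 after irradiation of old mice, the first value in each case being that of the probe that stands for the gene.

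Of 16 other class I genes tested, 3 were called higher and 1 lower after irradiation of young mice, against 14.4% and 21.4% of all genes, with a median of 0.41 over the list. H2-T23, the heavy chain of Qa-1, rose by 0.54 (SE 0.15, limma adjusted p = 0.00935). The other calls, named after their values were seen, were H2-T24 at 2.22, H2-Q10, a secreted class I molecule made mainly by the liver, at 3.05, and H2-M3, which presents N-formylated peptides, at -0.66. In old mice, with a median of -0.21, H2-T24 (1.69) was called higher and H2-M3 (-1.73) lower, and H2-Q10 stood at 1.75 without being called. Without replicates 4 and 6 the median was 0.11, and H2-Q10 (2.92) was called higher as well. The mean level of 11 hepatocyte markers ran from 2.01 to 6.85 in young unirradiated mice, from 3.02 to 10.8 in young irradiated mice, from 0.944 to 1.85 in old unirradiated mice and from 2.63 to 10.1 in old irradiated mice. In old unirradiated mice 4 of the 11 were well above background on none of the arrays. Their part in these values was not tested.

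Peptide trimming and loading genes gave 3 of 11 called higher and 0 lower in young mice, with a median of 0.30. These were the endoplasmic reticulum chaperones Pdia3 (1.51), Hspa5 (1.15) and Calr (0.97). In old mice 0 were called higher and 3 lower, and without replicates 4 and 6, 2 lower, with medians of -0.77 and -0.58. Proteasome activator and assembly genes gave 2 of 5 called lower in young mice, among them Psme3, the nuclear activator subunit (-1.55), and 3 of 5 in old mice, with medians of -0.58 and -1.30. Without replicates 4 and 6, 4 of the 5 were called lower in old mice, with a median of -0.87. Psme1, from the interferon-induced activator PA28, did not pass the variation filter and differed by -0.17 and -0.53 in the fit without it, uncalled. Of 10 constitutive 20S proteasome genes, 0 were called by limma in young mice. In old mice, with all arrays, Psmb3 alone was called lower (-0.94). The list medians were 0.13 and -0.92, the latter moving to -0.50 without replicates 4 and 6. Beside these counts, 14.4% of all genes were called higher and 21.4% lower in young mice. In old mice the shares were 7.60% and 17.4%, or 11.9% and 22.8% without the 2 arrays.

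The regulators of class I transcription gave 2 of 13 called higher and 3 lower in young mice, where 14.4% and 21.4% of all genes were. In old mice 0 were called higher and 2 lower, or 3 lower without replicates 4 and 6, where 7.60% and 17.4% of all genes were with all arrays. The list medians were -0.27 and -0.59, the latter moving to -0.29 without those arrays. Irf1, an interferon-induced activator of class I genes, stood at -0.17 in young and -0.57 in old mice, or 0.12 without the pair, and was not called. Ciita, the class II counterpart of Nlrc5, fell by 0.88 (young) and 2.52 (old). Irf8, named after its values were seen, fell by 1.64 and 2.95 in the same order. The old values of Ciita and Irf8 include replicates 4 and 6.

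Interferon gamma itself was called in old mice, where Ifng rose by 1.61, and stood at 1.19 in young mice and missed the unadjusted threshold there (limma adjusted p = 0.0146). Its receptor genes did not rise: Ifngr1 differed by -0.12 in young and -1.03 in old mice, uncalled, and Ifngr2 fell by 0.50 in young mice and stood at -1.04, uncalled, in old mice. Without replicates 4 and 6 Ifngr1 stood at -0.42 and Ifngr2 at -0.16, both uncalled, and Ifng at 1.43, still called. Of 25 interferon-stimulated genes, 18 were called higher and 1 lower in young mice, with a list median of 1.82. Of all genes, 14.4% were called higher there and 21.4% lower. In old mice 4 were called higher, beside 7.60% of all genes. Without replicates 4 and 6, 11 were called higher and 2 lower, beside 11.9% and 22.8% of all genes. Oas1a rose by 2.90 in young mice. Igtp, an interferon-inducible GTPase, rose by 1.98 (young) and 1.75 (old, with all arrays).

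Genes on the list of class I receptors were called in young mice and, with all arrays, not in old mice. In young mice Cd8a, the co-receptor for class I on T cells, fell by 2.84 and Cd8b1 by 2.58. Of the list of 13 tested receptor genes, which also holds Cd244, a receptor for CD48 and not for class I, 6 were called higher and these 2 lower. The shares of all genes called higher and lower were 14.4% and 21.4% in young mice. They were 7.60% and 17.4% in old mice, or 11.9% and 22.8% without replicates 4 and 6. In old mice 0 of 13 were called either way by limma, and 0 had an unadjusted p below 0.05, with Cd8a at -0.63 and Cd8b1 at -0.29. Without replicates 4 and 6, 3 were called higher, the natural killer cell receptor genes Klra4 (1.17), Klra8 (1.62) and Klra9 (1.19), named after their values were seen, and 0 lower, with Cd8a at -1.20 and Cd8b1 at -1.30, uncalled.

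The markers of blood cell types also moved. Of 10 B cell markers, 10 were called lower in young mice and 9 in old mice. Their mean level went from 5.59 to 5.99 without radiation down to 2.71 to 3.63 with it in young mice, and from 5.94 to 6.88 down to 1.85 to 4.10 in old mice. Of 12 T cell markers, 10 were called lower in young mice and 0 in old mice, where the mean levels were 5.53 to 7.22 and 5.15 to 6.25. With all arrays, 0 of all 17472 genes were called for the interaction of age and radiation. Unequal counts at the 2 ages, here or in the lists above, therefore establish no age difference. All 10 platelet markers were called higher at both ages. Their mean levels went from 7.32 to 8.21 up to 8.41 to 10.4 in young mice, and from 8.51 to 9.53 up to 10.3 to 11.1 in old mice. Other lists moved in young mice as well. Tissue macrophage markers went from 1.22 to 3.87 up to 4.45 to 6.30. Monocyte markers went from 5.01 to 5.59 up to 6.12 to 6.51. Natural killer cell (3.12 to 4.54, then 3.94 to 5.95) and neutrophil (3.61 to 4.67, then 4.55 to 5.44) markers overlapped. So did red cell markers (6.72 to 7.46, then 5.26 to 6.77). In old mice the ranges of these lists overlapped. Over all genes, the shares called higher and lower were 14.4% and 21.4% in young mice and 7.60% and 17.4% in old mice. In blood RNA alone, fewer cells of a type and less RNA per cell cannot be told apart. The paper's blood counts gave lymphocytes a smaller share of white cells after irradiation at both ages. Platelet counts did not change appreciably there. The part of the transcripts of any of these cell types in the values of B2m and of the immunoproteasome subunits was not tested.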

How the data were processed

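RNA from the blood of 24 mice was labeled with cyanine-3 and hybridized to 1-color Agilent whole-mouse-genome arrays. The authors extracted spot intensity values with Feature Extraction 12.0.2, which subtracted the background, and the scanner files were deposited with 1 array per mouse and with probe positions on mm9. A second deposited file holds log2 values for 17190 probes, which the authors filtered and normalized between arrays, with column medians of 5.77 to 6.73; 17166 probes matched the scanner files, and it correlated with the same arrays at 0.995 to 1.000. The exact centring of that table is not known, and it served as an alternative.

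Background-subtracted intensities were log2-transformed and the array median was subtracted. Control spots were left out. Probes non-uniform or not significantly above background on 25% or more of the arrays were dropped, as were genes with a 1.5-fold deviation from their median on fewer than 20% of the arrays (5 arrays), and the most intense probe stood for its gene. Each comparison was fitted on the arrays of its own groups with limma 3.58.1 in R 4.3.3 (lmFit and eBayes), and the interaction on all 24. The 3 subunit pairs were compared by two-sided exact permutation tests, with Benjamini-Hochberg adjustment over 12 tests. The fits were tested on simulated data. The number of arrays limits the precision. Age cannot be told apart from slide and scan day.

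The genes, lists and tests were chosen with earlier results of these data known. Named genes were the members, their counterparts, up to 5 genes of the highest signal per list and a fixed set of interferon genes, except where stated. Rfx5 did not pass the filter on dim probes, and Psme2 was not analysed here. A gene of the fixed set is not reported here.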

Additional observations from a re-analysis of the deposited data

Results flagged for a closer look

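In 2 of the 40 groups of 6 mice (10 genes in 4 groups), 1 mouse lay far from the others by Dixon's criterion, which chance meets in about 1 of 20 groups. Tapbp in young unirradiated replicate 3 had a level of 6.51, against 6.30 in the next highest mouse of that group. Psmb10 in young irradiated replicate 4 had a level of 8.17, against 7.61 in the next highest. Both genes are uncalled or outside the tested set in the comparison of irradiated with unirradiated young mice.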

How the results depend on the processing

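In young mice B2m was called in all fits but the one with normexp background correction, where 0 genes were called higher, and 2 were called higher without the 1.5-fold filter, Tapbp being the other. Called lower were 2 with quantile normalization (Psmb8 and Psmb9) and 1 with slide as a random block. In old mice 1 gene was called higher with 75th percentile scaling, with scaling to bright probes and in 1 fit of all 24 arrays, and those called lower numbered 1 with bright-probe scaling and 0 with normexp. Psmb9 was called lower in old mice under 1 of the 3 scalings in which it was tested. Between unirradiated old and young mice the genes called higher numbered 3 (75th percentile), 3 (quantile), 2 (bright probes), 0 (normexp) and 2 (the authors' table), where Nlrc5 was -0.28. Between irradiated mice 1 was called higher in 1 fit of all arrays and 5 without old irradiated replicates 4 and 6, an alternative chosen after seeing the data. Psmb10 minus Psmb7 in old mice was -1.002 with normexp (exact test, adjusted p = 0.0649) and -0.79 without those 2 arrays (adjusted p = 0.114). The causes were not tested, except that the scalings change which genes pass the 1.5-fold filter.

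Over the context lists together, genes called higher and lower in young mice numbered 32 and 11, against 15 and 1 with normexp and 7 lower in the authors' table. In old mice they numbered 6 and 11, against 0 and 0 with normexp, 17 higher without replicates 4 and 6, 5 lower each with the 75th percentile, quantile and bright-probe scalings, and 3 lower in the authors' table. Between unirradiated old and young mice they numbered 69 and 1, against 17 and 2 (75th percentile), 15 and 3 (quantile), 14 and 2 (bright probes), 0 and 0 (normexp) and 8 and 3 (the authors' table). Between irradiated mice they numbered 2 and 2, against 1 higher under each of these 5 settings, 4 lower with quantile and with bright-probe scaling, 0 lower with normexp and in the authors' table, and 21 and 5 without replicates 4 and 6.

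Leaving out 1 array at a time gave 1 to 2 genes called higher and 0 to 1 called lower in young mice, 2 to 3 called lower in old mice and 0 to 1 called for the interaction. H2-D1 was called in young mice without young irradiated replicate 4 (0.58) and Psmb8 without young irradiated replicate 6 (-0.45). Psmb9 was called in old mice without old unirradiated replicate 4 or old irradiated replicate 1. Psmb10 minus Psmb7 in old mice ranged from -1.28 to -0.97, and 8 of 12 such fits missed the threshold.

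Replicate numbers do not pair mice, and same-numbered mice deviated together at r = -0.60 to 0.58. With the replicate number as a block, 9 genes were again called higher in old unirradiated mice, and 55 of 55 results kept their call.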
